A study of Mus musculus with 12 samples.

Results

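The Hox genes encode homeodomain transcription factors that lie side by side in 4 genomic clusters, Hoxa, Hoxb, Hoxc and Hoxd. They were taken as every row of the count table whose symbol is one of these 4 names followed by a paralog number from 1 to 13, which gave 39 of 24391 genes. Hoxa held 11 members, Hoxb 10, Hoxc 9 and Hoxd 9. Paralog groups 1 to 3 are called anterior here (8 members), 4 to 8 central (15) and 9 to 13 posterior (16).

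Within a cluster, the order of Hox genes along the chromosome matches the order in which they are switched on in time and along the head-to-tail axis of the embryo, a property called colinearity. In mouse embryonic stem cells (mESC) the clusters are classic targets of the Polycomb complexes PRC1 and PRC2, histone-modifying complexes that keep them at low output, while trithorax methyltransferases mark the same promoters. Retinoid signalling and the Cdx factors act upstream, and Pbx and Meis proteins of the TALE class bind DNA together with Hox proteins.

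Total RNA was sequenced from 4 female lines of mESC, whose background combines C57BL/6J-129/SvJ with Mus musculus castaneus, and all carried a tamoxifen-activated Cre at Rosa26 (Rs26+/CreERT). Lines 5.3 and 5.16 were Rif1+/+ and gave replicates 1 and 2. Lines 15.10 and 16.9 were Rif1F/F, with floxed alleles of Rif1, whose protein acts in replication timing and chromatin organisation, and gave replicates 3 and 4. Each line gave 1 library as mESC before Cre was activated, 1 as mESC after 2 days of 4-hydroxytamoxifen (OHT), and 1 as embryoid bodies (EB), aggregates in which mESC start to differentiate, after OHT and 2 days of EB culture. The 6 groups of 2 libraries are called WT and F/F mESC before OHT, WT and KO mESC after OHT, and WT and KO EB. The culture medium of the mESC held serum, leukemia inhibitory factor, a MEK inhibitor and a GSK3 inhibitor, and the WT cells received OHT as well. The label that appears to name the flow cell was shared within a condition and differed between conditions, so effects of the condition and of what that label stands for cannot be told apart. Within a condition, genotype cannot be told apart from other differences between the 2 pairs of lines. Each p-value rests on the spread between the 2 lines within a group, pooled over the 6 groups and moderated over genes. The fit treats the libraries of a line as independent.

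Library totals ranged from 28600870 to 64808897 counts. The targeted gene Rif1 was at 1684 ± 166 CPM, its count scaled to the library total (mean ± SD, n = 2), in WT and 1181 ± 33.1 CPM in F/F mESC before OHT, at 1477 ± 48.9 and 686 ± 46.6 CPM in WT and KO mESC after OHT, and at 1331 ± 33.0 and 834 ± 38.6 CPM in WT and KO EB. Rif1 was thus lower in the F/F lines before OHT as well, with a log2 fold change of -0.49 ± 0.08 (SE), against -1.17 ± 0.08 in mESC after OHT. WT mESC replicate 1 stood apart, with Lars2 at 0.869% of its counts against at most 0.140% elsewhere. It also had the largest total and the lowest TMM factor, a scaling between libraries, at 0.942 against 0.974 to 1.03. The 2 libraries of its group differed most, with a chi-square per degree of freedom of 69.3 against 4.48 to 12.8 in the other groups. Pou5f1 was at 649.7 CPM or more in every library, and Fgf5, a marker of cells leaving the naive state, rose from at most 0.247 CPM in mESC to at least 40.7 CPM in EB. None of the 8 defining fibroblast markers exceeded 3.93 CPM in any library: Col1a1 was at 0.908 to 3.93 CPM, and Col1a2, Col3a1, Dcn, Lum, Postn, Prrx1 and Twist2 were each at 0 in at least 1 library.

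Promoter windows of 4 members that the results turn on are printed here. RefSeq windows were matched by symbol for 22 of the 39 members (24 windows), and only the 250 bases before each annotated start were used, on build GRCm38.p6. Polycomb-bound promoters in mESC are mostly rich in CG dinucleotides. Their median number was 12.5 per window in Hox members against 6 over all 32851 windows, and the members ranged from 2 to 35. The first 2 windows are shown because Hoxb1 and Hoxb8 had no counts in KO mESC after OHT, had counts in KO EB, and hold a Hox-type motif. Hoxb8, unlike Hoxb1, had 9 to 20 counts in each mESC library before OHT. Capitals mark the match to TGATNNAT, the letters of the composite site bound by Hox and Pbx proteins, searched on both strands. Hoxb1 lies at chr11:96365508-96365757 and Hoxb8 at chr11:96281655-96281904, both on the plus strand, and the match in Hoxb8 is on the opposite strand.
Hoxb1: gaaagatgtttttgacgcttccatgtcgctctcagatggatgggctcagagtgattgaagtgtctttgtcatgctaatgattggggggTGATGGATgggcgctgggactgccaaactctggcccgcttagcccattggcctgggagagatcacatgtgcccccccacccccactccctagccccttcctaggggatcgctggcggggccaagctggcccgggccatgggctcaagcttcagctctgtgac
Hoxb8: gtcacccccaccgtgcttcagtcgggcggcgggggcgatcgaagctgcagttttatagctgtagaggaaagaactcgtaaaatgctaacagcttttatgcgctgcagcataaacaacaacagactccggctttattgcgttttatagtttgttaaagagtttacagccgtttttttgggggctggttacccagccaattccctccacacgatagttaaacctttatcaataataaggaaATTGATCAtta

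TGATNNAT was found in 4 of the 24 member windows (16.7%), those of Hoxa2, Hoxb1, Hoxb8 and Hoxd11, against 7.68% of all windows. The letters AGGTCA, the repeat unit bound by retinoic acid receptors, were found in 6 member windows (25.0%) against 14.0% of all windows, and TATAAA in 4 (16.7%) against 12.4%. The next 2 windows are shown because they belong to the same cluster and their genes kept unlike shares of their counts in EB: Hoxd9 (chr2:74697513-74697762, plus strand) lost most of its counts in EB, and Hoxd13 (chr2:74667975-74668224, plus strand) kept 2.48 CPM or more in every library. Capitals mark CG dinucleotides, of which Hoxd9 has 13 and Hoxd13 has 31 in the window, a number reached by 5.19% of all windows. A match or a count of CG is a description of the letters only.
Hoxd9: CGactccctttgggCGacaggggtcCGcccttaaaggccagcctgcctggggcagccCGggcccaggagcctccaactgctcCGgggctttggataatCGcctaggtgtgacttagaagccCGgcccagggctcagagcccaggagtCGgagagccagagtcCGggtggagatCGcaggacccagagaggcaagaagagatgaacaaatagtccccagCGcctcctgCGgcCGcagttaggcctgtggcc
Hoxd13: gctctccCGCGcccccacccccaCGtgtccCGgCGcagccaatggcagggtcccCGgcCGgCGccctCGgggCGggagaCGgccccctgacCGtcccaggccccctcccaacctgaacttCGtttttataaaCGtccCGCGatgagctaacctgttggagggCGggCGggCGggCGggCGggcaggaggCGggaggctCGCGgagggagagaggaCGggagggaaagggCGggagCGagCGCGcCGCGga

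Hox RNA was scarce in every library and scarcest in EB. The 39 members together made up 70.3 and 73.5 CPM in WT and 80.5 and 69.8 CPM in F/F mESC before OHT, 40.0 and 45.0 CPM in WT and 58.8 and 56.2 CPM in KO mESC after OHT, and 20.3 and 19.8 CPM in WT and 26.997 and 26.3 CPM in KO EB. The sum was lower in EB than in mESC in each genotype and higher in KO than in WT both in mESC after OHT and in EB, with no overlap between libraries. Before OHT the libraries of the 2 genotypes overlapped. In such bulk RNA, fewer cells that express a gene and less RNA per cell cannot be told apart.

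**Figure D1:**
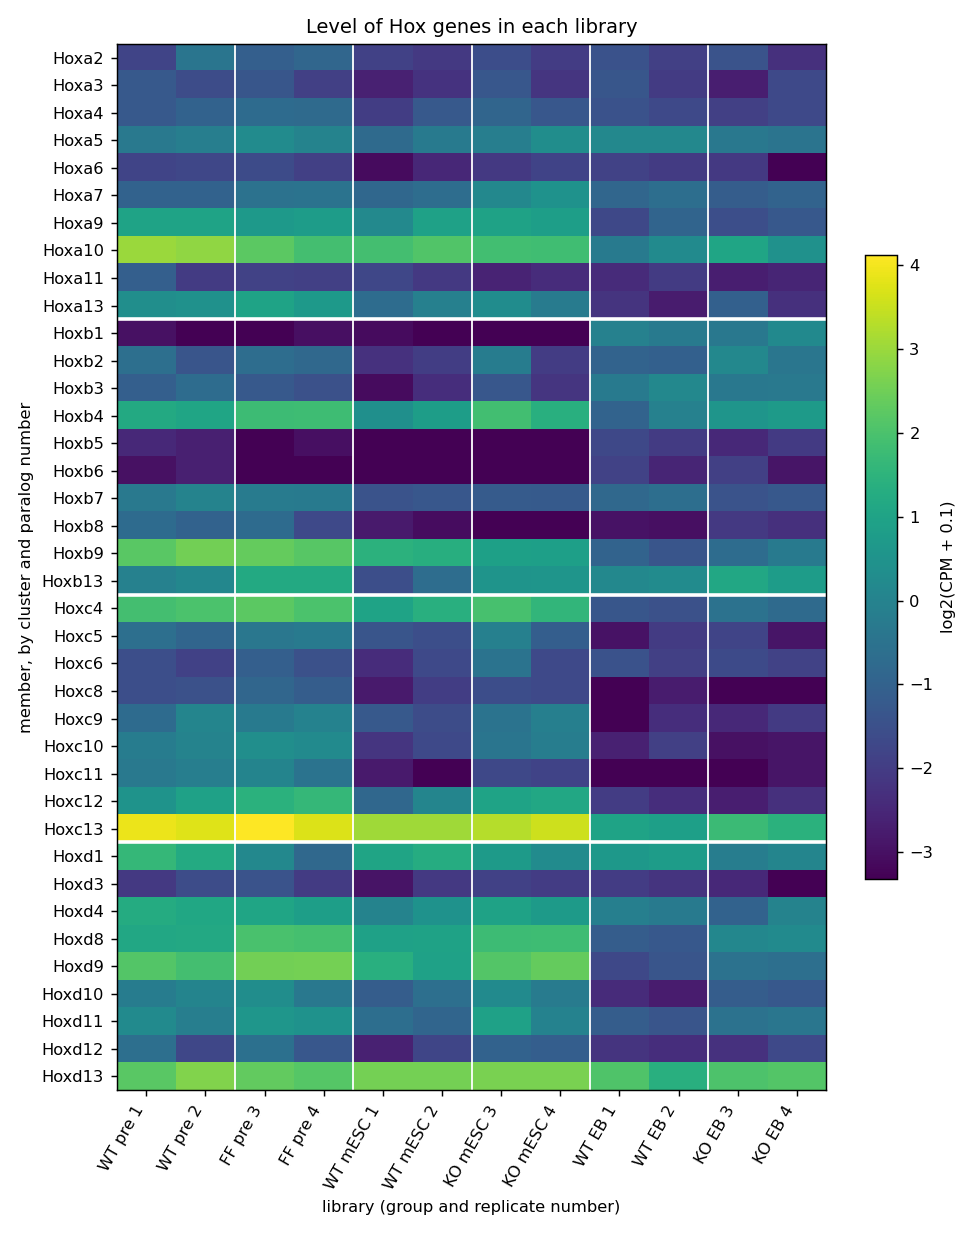
Level of Hox genes (rows, by cluster and paralog number) in each of the 12 libraries (columns, by group and replicate number), as log2(CPM + 0.1). Hoxb1 turns from dark to mid-range in the 4 EB libraries, and most Hoxc and Hoxd rows darken there.

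At least 0.1 CPM in both libraries was reached by 36 members in WT and 36 in F/F mESC before OHT, by 27 in WT and 34 in KO mESC after OHT, and by 27 in WT and 27 in KO EB. A stricter 1 CPM was reached by 14, 16, 11, 15, 6 and 6 members in the same order. The limit that a count of 0 allows, 3 counts, corresponds to 0.0463 to 0.105 CPM depending on the library, so the 0.1 CPM level lies close to it. Per kilobase of the longest annotated transcript, the scale on which genes can be compared with each other, Hoxc13 led with 3.60 CPM per kilobase averaged over all libraries. Hoxd13 (1.97), Hoxa10 (1.41), Hoxd9 (1.36), Hoxc12 (1.18) and Hoxc4 (1.13 CPM per kilobase) were next among those named here. Single genes carried much of a cluster: Hoxc13 gave 61.0% of the summed Hoxc CPM, Hoxd13 33.5% of Hoxd and Hoxb9 32.5% of Hoxb.

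The 4 clusters moved differently from mESC to EB. Summed Hoxc fell most, from 12.1 ± 0.872 CPM (SD, n = 2) in WT mESC after OHT to 2.71 ± 0.0137 CPM in WT EB, a 4.47-fold drop, and from 18.9 to 4.02 CPM in KO (4.70-fold). Hoxd fell 2.07-fold in WT and 2.37-fold in KO, and Hoxa fell 2.03-fold and 1.60-fold. Summed Hoxb was about level, at 4.92 and 4.96 CPM in WT and 7.12 and 6.997 CPM in KO, with overlapping libraries.

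The make-up of the Hox RNA shifted with these sums. Anterior members gave 14.3% of Hox counts in WT mESC after OHT and 29.8% in WT EB, and 8.11% and 26.3% in KO. The posterior share went from 65.1% to 44.7% in WT and from 64.7% to 51.5% in KO. Between genotypes, KO exceeded WT in mESC after OHT for Hoxb (1.45-fold), Hoxc (1.56-fold) and Hoxd (1.41-fold) without overlap of libraries, whereas Hoxa was at 11.3 and 11.5 CPM. Part of this pattern was present before OHT, where summed Hoxb (ratio of F/F to WT 1.18) and Hoxc (1.16) were already higher in F/F without overlap. Summed Hoxa was lower there (0.84), also without overlap, and the Hoxd libraries overlapped (1.05). In EB the ratio of KO to WT was 1.29 for Hoxa, 1.41 for Hoxb, 1.48 for Hoxc and 1.23 for Hoxd. The Hoxa ratio in EB rested on 1 member: without the highest of the cluster it went from 0.37 to 0.02 on the log2 scale. Without Hoxc13 the Hoxc difference in EB shrank from 0.57 to 0.30. Without Hoxb9 the log2 ratio of summed Hoxb in WT EB against mESC was 0.97, and in KO 0.25. These ratios carry no test.

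**Figure D2:**
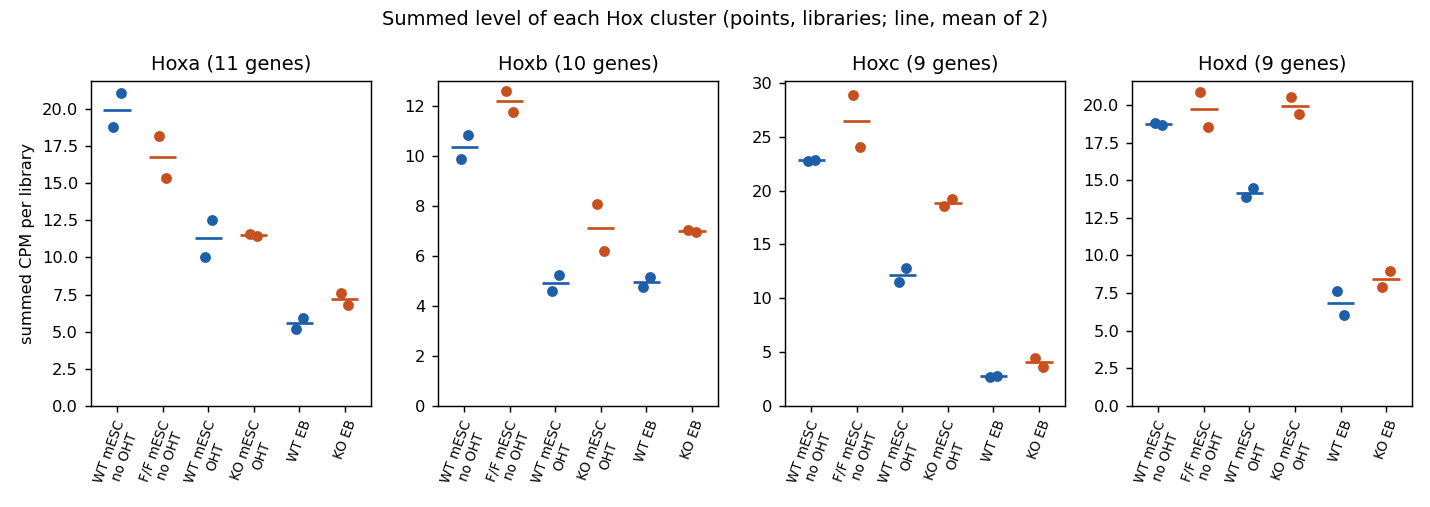
Summed CPM of each Hox cluster by group (points, the 2 libraries of a group; horizontal line, their mean; blue, WT; orange, F/F or KO; each axis starts at 0). Hoxc drops from 12.1 and 18.9 CPM in mESC after OHT to 2.71 and 4.02 CPM in EB, while Hoxb stays near 5 CPM in WT and 7 CPM in KO.

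Single members were tested with edgeR's quasi-likelihood F test on the counts, in 1 fit of all 6 groups over the whole table, with Benjamini-Hochberg adjustment over the 17115 genes that passed a filter on low counts. Of the 39 members, 34 passed. Hoxa6, Hoxa11, Hoxb5, Hoxb6 and Hoxd3 did not, with 0 to 14 counts in any library. Members that passed only through the group where they are high had to differ, so counts of members are set beside the same counts over all genes tested and carry no test of their own.

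During differentiation of WT cells, 4 members rose and 14 fell from mESC after OHT to EB, which is 11.8% and 41.2% of the 34, against 32.5% and 29.8% of all genes tested. In either direction this was 52.9% of the members against 62.3% of all genes. In KO cells 4 rose and 20 fell (11.8% and 58.8%, against 31.4% and 27.6% of all genes), or 70.6% in either direction against 59.0%. The median log2 fold change over the members was -0.75 in WT and -1.22 in KO (-1.20 with genes at 0 counts in a group set to their bound), with all-gene medians of 0.04 and 0.04. Both genotypes shared 13 of the members that fell, 92.9% of the WT list and 65.0% of the KO list, and 2 that rose, Hoxb1 and Hoxb3. The same overlap over all genes was not counted, so these shares describe the members only. Without WT mESC replicate 1, the library with high Lars2, 16 members were called in WT.

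The members that rose in both genotypes were anterior. Hoxb1, needed for hindbrain patterning and among the first Hox genes to respond to retinoids, had 0 or 1 count in each of the 8 mESC libraries and 29, 31, 25 and 30 counts in WT EB replicates 1 and 2 and KO EB replicates 3 and 4, or 0.862, 0.741, 0.682 and 1.05 CPM. All 4 EB libraries lay far above all mESC libraries. In WT the counts gave a ratio of 93.1 (95% exact binomial interval 16.1 to 3737, counting error only), and in KO, where mESC had no count, EB was at least 8.97-fold higher against a floor of 3 counts per library. Hoxb1 passed the filter on low counts through its EB libraries alone, so its values are given as a description, with no test.

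Hoxb3, in the same cluster, stood at 0.0154 and 0.0955 CPM in WT and 0.305 and 0.122 CPM in KO mESC after OHT. In EB it was at 0.743 and 1.00 CPM in WT and 0.682 and 0.699 CPM in KO. Before OHT it was at 0.376 and 0.520 CPM in WT and 0.326 and 0.262 CPM in F/F mESC. The WT rise into EB is thus measured from a level below that before OHT. The EB libraries exceeded the mESC libraries in each genotype without overlap. The log2 fold change was 4.00 ± 0.55 in WT and 1.69 ± 0.52 in KO (edgeR, adjusted p = 6.4e-06 and 0.0097), and the KO call was lost without KO mESC replicate 4 (log2 fold change 1.17, adjusted p = 0.12). An antisense gene, Hoxb3os, covers 52.9% of the exonic bases of Hoxb3 and 27.3% of those of Hoxb2, and no source used here says whether counting was strand-specific, so reads of the 2 strands cannot be told apart. Hoxb2 was called higher in WT EB than in WT mESC after OHT (1.59 ± 0.62, edgeR adjusted p = 0.034), a call lost when any of the 4 libraries was left out. It was at 0.416 and 0.382 CPM in WT EB, against 0.565 and 0.289 CPM in WT mESC before OHT.

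Other anterior members were low. Hoxa2 and Hoxa3 ranged from 0.0545 to 0.636 CPM over all libraries and passed no threshold in either differentiation comparison. Hoxd1 was at 1.93 and 2.33 CPM in WT mESC after OHT and 1.46 and 1.65 CPM in WT EB, with a log2 fold change of -0.46 ± 0.27 (edgeR, adjusted p = 0.14).

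Of the 12 central members tested, 3 fell in WT and 7 fell in KO, 25.0% and 58.3% against 29.8% and 27.6% of all genes, so the WT share was near the background. Hoxb8 was the 1 called higher in KO. Hoxb8, known for its role in posterior patterning and blood progenitors, had 3 and 1 counts in WT mESC after OHT and 0 and 0 in KO mESC. It had 1 and 1 counts in WT EB, and 5 and 3 in KO EB. Before OHT it had 19 and 14 counts in WT and 20 and 9 in F/F mESC. Each library before OHT, at 0.214 CPM or more, was above every EB library, at 0.136 CPM or less. Its level in KO EB was at least 1.25-fold above the floor in KO mESC, and the call (adjusted p = 0.015) was lost without KO EB replicate 3, KO mESC replicate 3 or KO mESC replicate 4 (adjusted p 0.062 to 0.072). Hoxb5 and Hoxb6, members of the same cluster that did not pass the filter, had 0 counts in all 4 mESC libraries after OHT and 1 to 7 counts in each EB library.

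Hoxc4 fell furthest among the central members that had counts in every group. It was at 1.88 and 2.50 CPM in WT and 3.80 and 2.86 CPM in KO mESC after OHT, and at 0.297 and 0.263 CPM in WT and 0.600 and 0.489 CPM in KO EB. Every EB library lay below every mESC library, with log2 fold changes of -2.97 ± 0.29 in WT and -2.60 ± 0.26 in KO (edgeR, adjusted p = 8.7e-08 and 1.6e-07). Hoxd8 fell by 2.48 ± 0.26 and 1.74 ± 0.21 in the same comparisons, and Hoxb4, a regulator of blood stem cells, fell by 1.14 ± 0.30 and 1.05 ± 0.27. The fall of Hoxb4 in WT missed the threshold without WT EB replicate 1 (adjusted p = 0.054).

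The other central calls were in KO, and of these genes Hoxa7 alone had a change that differed between genotypes by the test of the difference (-1.59 ± 0.49, edgeR adjusted p = 0.021, lost in 5 of 8 fits without a library, at most 0.11). Hoxa7 fell by 1.60 ± 0.35 and Hoxd4 by 1.43 ± 0.33, and both held whichever library was left out. Hoxd3 and Hoxd4 share 62.3% and 52.3% of their exonic bases with other genes on the same strand, so how reads were split between them is uncertain. Hoxc8 had 7 and 7 counts in KO mESC and 0 in both KO EB libraries, at least 2.41-fold lower. Hoxc5 fell by 2.29 ± 0.64 and lost its call without KO EB replicate 4 (adjusted p = 0.061) or KO mESC replicate 3 (0.10). Hoxa4, Hoxa5, Hoxb7 and Hoxc6 passed in neither genotype, with log2 fold changes from 0.02 to 0.80 in WT and from -1.03 to -0.23 in KO.

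Posterior members, which pattern the trunk end, limbs and urogenital tract, made up most of the decline: 10 of 15 tested fell in WT and 13 of 15 in KO, 66.7% and 86.7% against 29.8% and 27.6% of all genes. Hoxc13, known for hair and nail formation, was at 8.26 and 8.27 CPM in WT and 9.76 and 11.6 CPM in KO mESC after OHT. In EB it was at 1.90 and 1.74 CPM in WT and at 3.27 and 2.59 CPM in KO. Every EB library was below every mESC library, and the log2 fold change was -2.20 ± 0.17 in WT and -1.88 ± 0.17 in KO (edgeR, adjusted p = 6.4e-09 and 3.8e-08).

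Hoxd9, which with its paralogs patterns the forelimb and spine, fell further, from 2.48 and 1.81 CPM to 0.208 and 0.287 CPM in WT and from 4.27 and 5.05 CPM to 0.600 and 0.559 CPM in KO. The log2 fold changes were -3.11 ± 0.31 and -3.02 ± 0.26 (edgeR, adjusted p = 1.2e-07 and 2.5e-08). Hoxb9 went from 2.67 and 2.46 CPM to 0.416 and 0.287 CPM in WT and from 1.76 and 1.74 CPM to 0.518 and 0.734 CPM in KO. Its decline of 2.90 ± 0.27 in WT and 1.52 ± 0.28 in KO was past the threshold in both, and the difference between them was 1.38 ± 0.42 (adjusted p = 0.019, lost without KO EB replicate 4 or WT EB replicate 2, adjusted p = 0.11 in each).

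Hoxd13, a limb and urogenital gene whose promoter window is printed above, had smaller changes than Hoxd9. It was at 5.79 and 5.85 CPM in WT and 6.03 and 6.09 CPM in KO mESC after OHT, and at 4.10 and 2.48 CPM in WT and 3.98 and 4.30 CPM in KO EB. The EB libraries lay below the mESC libraries in each genotype. It fell by 0.85 ± 0.20 in WT (edgeR, adjusted p = 0.0012) and by 0.57 ± 0.20 in KO (adjusted p = 0.023), and the KO call was lost when any of the 4 libraries was left out (adjusted p 0.055 to 0.12).

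Hoxa9, Hoxa10, Hoxa13, Hoxc12, Hoxc9 and Hoxd10 also fell in both genotypes. Hoxa10, a gene of the uterus and hindlimb, fell by 2.10 ± 0.23 in WT and 1.12 ± 0.23 in KO, and Hoxc12 by 2.50 ± 0.49 and 4.67 ± 0.50. Hoxa9 fell by 2.11 ± 0.36 and 2.69 ± 0.39, and Hoxa13 by 3.04 ± 0.57 and 1.86 ± 0.47. The fall of Hoxc9 in WT, by 2.36 ± 0.76, was lost without WT mESC replicate 1 (adjusted p = 0.061) or WT EB replicate 1 (0.097). The fall of Hoxd10 was 2.71 ± 0.58 in WT and 1.46 ± 0.41 in KO, and the latter was lost without KO mESC replicate 3 (adjusted p = 0.057).

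Hoxc10, Hoxc11 and Hoxd11 were called lower in KO only, at -4.44 ± 0.67, -3.42 ± 1.14 and -1.11 ± 0.36. Hoxc10 had 19 and 26 counts in KO mESC against 1 and 1 in KO EB, a ratio of 23.6 (95% exact interval 6.15 to 200.4), and 8 and 11 against 2 and 7 in WT. The difference between the genotypes for Hoxc10 was -3.97 ± 1.01 (edgeR, adjusted p = 0.0071) and was lost without WT EB replicate 2 (-3.01, adjusted p = 0.17). For Hoxc11, with 12 counts in KO mESC and 1 in KO EB, the call was lost without KO EB replicate 3 (adjusted p = 0.14) or KO mESC replicate 3 (0.051), and for Hoxd11 without KO EB replicate 3 (0.085) or KO mESC replicate 3 (0.29). The differences between genotypes for Hoxc11 and Hoxd11 did not pass the threshold. Hoxb13 was the posterior member that rose, from 0.247 and 0.535 CPM to 1.01 and 1.10 CPM in WT (1.45 ± 0.33, edgeR adjusted p = 0.00089). Before OHT it was at 0.860 and 0.983 CPM in WT mESC. In KO it was at 1.36 and 1.37 CPM in mESC and at 2.13 and 1.64 CPM in EB (0.46 ± 0.28, adjusted p = 0.17). Hoxd12 passed in neither genotype.

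**Figure D3:**
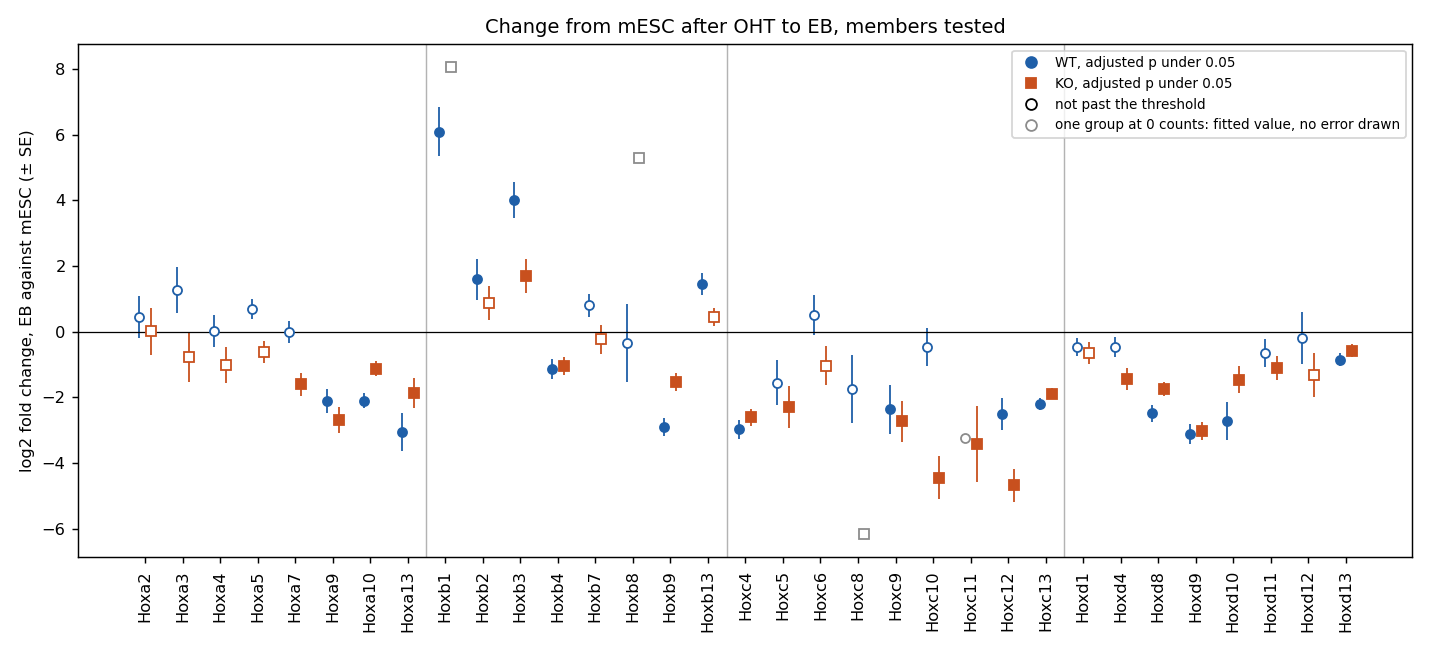
Log2 fold change from mESC after OHT to EB for members tested, in cluster order (circles, WT; squares, KO; bars, SE; filled, adjusted p under 0.05; grey open symbols, comparisons with 0 counts in 1 group, for which the fitted value is not a measured size). Hoxb1 and Hoxb3 rise in both genotypes, and nearly all Hoxc and Hoxd members lie below 0.

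The second question the design asks is how Hox genes differ between genotypes. In mESC after OHT, 13 members were higher and 3 lower in KO than in WT, 38.2% and 8.82% of those tested, against 19.8% and 18.6% of all genes (13 and 1 when scaled by library totals). In either direction this was 47.1% against 38.4%. The median log2 fold change was 0.90 over the members and 0.00 over all genes. Without WT mESC replicate 1, 11 members were called, without KO mESC replicate 3, 6, and DESeq2 called 9. Marker sums moved with genotype here: the 15 fibroblast markers summed to 86.0 to 110.6 CPM in WT and 149.9 to 152.8 CPM in KO mESC after OHT, against 85.3 to 89.1 and 85.6 to 92.4 CPM in WT and F/F before it, and the 8 streak and posterior mesoderm markers to 23.2 to 25.5 CPM in WT and 11.6 to 12.5 CPM in KO, against 27.5 to 29.3 and 12.8 to 13.3 CPM in WT and F/F before it. Col1a2, a defining fibroblast marker, was at 0.0154 and 0 CPM in WT and 0.881 and 1.19 CPM in KO mESC. Before OHT it was at 0 in both WT and 0.954 and 1.07 CPM in the F/F libraries. After OHT, Col1a1 was also higher in KO, at 2.58 and 3.93 against 1.47 and 1.39 CPM. Prrx1 went the other way, at 0.0309 and 0.0382 CPM in WT and 0 in both KO libraries. The remaining defining markers were at 0.0678 CPM or less there, so the fibroblast sums came mostly from other genes of the list. Of the fibroblast markers tested, 4 were called higher and 1 lower in KO mESC after OHT. The part of these marker differences in the Hox values of mESC was not tested. By cluster, 5 of 9 Hoxc, 4 of 8 Hoxd, 3 of 8 Hoxb and 1 of 9 Hoxa members tested were higher. The comparison shares its line pairs with the one before OHT, in which 5 members were higher and 2 lower in F/F (14.7% and 5.88%, against 19.9% and 17.5% of all genes, or 20.6% against 37.4% in either direction). Without F/F replicate 4 before OHT, 4 were called.

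Central and posterior members led the higher calls in mESC. Hoxb13, best known from the prostate and tail end, was at 0.247 and 0.535 CPM in WT and 1.36 and 1.37 CPM in KO mESC after OHT, a log2 fold change of 1.78 ± 0.32 (edgeR, adjusted p = 0.00035). Before OHT it was at 0.860 and 0.983 CPM in WT and 2.19 and 2.21 CPM in F/F (1.28 ± 0.28, adjusted p = 0.0017). Both calls held whichever library was left out, and in EB the difference was 0.78 ± 0.28 (adjusted p = 0.036), lost without KO EB replicate 3 or either WT EB replicate (adjusted p 0.096 to 0.27).

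Hoxd8, a trunk-patterning gene, was at 1.82 and 1.87 CPM in WT and 3.36 and 3.44 CPM in KO mESC after OHT, and at 2.10 and 2.14 CPM in WT and 3.87 and 3.74 CPM in F/F mESC before OHT. In EB it was at 0.357 and 0.311 CPM in WT and 0.982 and 1.08 CPM in KO. The genotypes were separate in all 3 conditions, with log2 fold changes of 0.87 ± 0.18 before OHT, 0.82 ± 0.18 after it and 1.56 ± 0.29 in EB (edgeR, adjusted p = 0.0013, 0.0019 and 0.00041). All 3 calls held whichever library was left out, and Hoxd8 was the only member of which that was true in EB.

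Hoxd9, next to Hoxd8, was higher by 0.57 ± 0.19 before OHT, 1.05 ± 0.20 after it and 1.14 ± 0.41 in EB. The call after OHT held whichever library was left out. That before OHT was lost without F/F replicate 3 or 4 or WT replicate 2 (adjusted p 0.051 to 0.16), and that in EB without any of the 4 libraries (0.066 to 0.15). Hoxb4 was at 1.20 and 1.68 CPM in WT and 3.52 and 2.47 CPM in KO mESC after OHT, with differences of 0.72 ± 0.25, 1.00 ± 0.25 and 1.09 ± 0.32 in the 3 conditions. Its calls were lost without any of the 4 libraries before OHT (adjusted p 0.052 to 0.13), without KO mESC replicate 3 after OHT (0.081), and without KO EB replicate 4 (0.071) or WT EB replicate 1 (0.13) in EB.

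Thus 4 members, Hoxb4, Hoxb13, Hoxd8 and Hoxd9, were called higher in the Rif1F/F lines in all 3 conditions, including before deletion, and 1 member, Hoxd1, was called lower in all 3. Of the 5 members higher before OHT, all were among the 13 higher after it (38.5% of the longer list), the other being Hoxc12. The same overlaps over all genes were not counted, and the comparisons share their line pairs, so these numbers describe the members only. Hoxd1 was at 3.04 and 2.26 CPM in WT and 1.00 and 0.476 CPM in F/F mESC before OHT, at 1.93 and 2.33 CPM in WT and 1.56 and 1.10 CPM in KO mESC after OHT, and at 1.46 and 1.65 CPM in WT and 0.791 and 0.944 CPM in KO EB. The F/F or KO libraries were lower in each condition. The log2 fold change was -1.83 ± 0.30 before OHT (edgeR, adjusted p = 0.00012, held whichever library was left out), -0.74 ± 0.28 after OHT and -0.92 ± 0.32 in EB, the last 2 lost without any 1 of their 4 libraries (adjusted p 0.055 to 0.30 and 0.058 to 0.18).

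The Hoxc calls after OHT included the neighbours Hoxc10, Hoxc11 and Hoxc12. Hoxc12 was at 0.463 and 0.936 CPM in WT and 1.90 and 2.10 CPM in KO mESC after OHT (1.49 ± 0.31, edgeR adjusted p = 0.0011), and Hoxc10 at 0.123 and 0.210 CPM in WT and 0.644 and 0.792 CPM in KO (2.06 ± 0.42, adjusted p = 0.0010). Both held whichever library was left out. Before OHT the Hoxc12 difference was 0.87 ± 0.28 (adjusted p = 0.021, lost without F/F replicate 4, 0.13, or WT replicate 1, 0.18) and that of Hoxc10 was 0.45 ± 0.33 (adjusted p = 0.30). In EB neither gene passed, with values of -0.68 ± 0.83 and -1.91 ± 0.93. Hoxc11 had 3 and 0 counts in WT and 6 and 6 in KO mESC after OHT, a ratio of 7.52 (95% exact interval 2.03 to 41.5), and its call was lost without KO mESC replicate 3 or 4 or WT mESC replicate 2 (adjusted p 0.086 to 0.11).

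The remaining calls in mESC after OHT depended on single libraries. Hoxd11 (1.37 ± 0.34) was lost without KO mESC replicate 3 (0.80, adjusted p = 0.15), in which it reached 1.83 CPM against 0.883 CPM in the other KO library. Hoxa7 (1.15 ± 0.30) was lost without KO mESC replicate 4 (adjusted p = 0.095). Hoxb2 (1.73 ± 0.63) went to 0.21 without KO mESC replicate 3 (adjusted p = 0.88), where it had 23 counts against 5 in the other KO library, and was also lost without WT mESC replicate 1 or 2 (0.14 and 0.057).

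Hoxc4 (0.55 ± 0.20) was lost without WT mESC replicate 1 or KO mESC replicate 3 (0.23 and 0.30). Hoxc9 (1.29 ± 0.47) was lost without KO mESC replicate 3 or 4 or WT mESC replicate 2 (0.056 to 0.25), and Hoxd10 (0.97 ± 0.36) without KO mESC replicate 3 or 4 or WT mESC replicate 1 (0.060 to 0.26). Lower in KO, beside Hoxd1, was Hoxb9 (-0.62 ± 0.21, adjusted p = 0.030, lost without KO mESC replicate 3 or 4 or WT mESC replicate 1, 0.12 to 0.16).

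**Figure D4:**
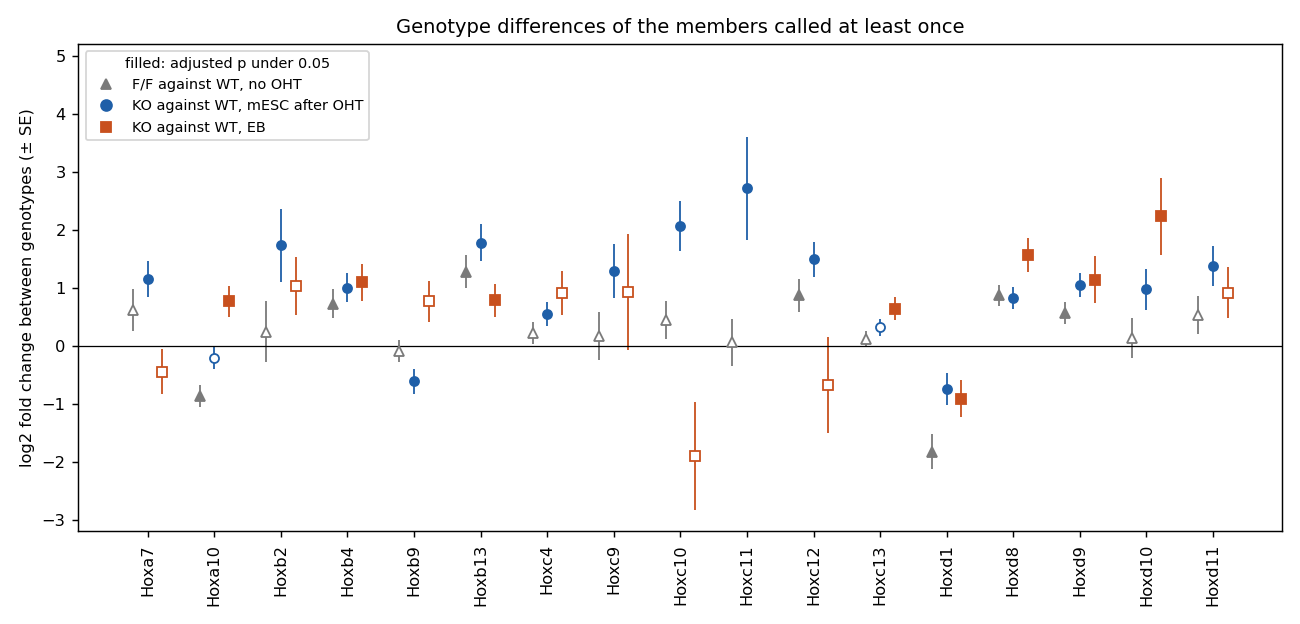
Log2 fold change between genotypes (± SE) for members called in at least 1 of the 3 conditions (triangles, F/F against WT mESC before OHT; circles, KO against WT mESC after OHT; squares, KO against WT EB; filled, adjusted p under 0.05; Hoxc11 in EB is not drawn because WT EB had 0 counts). Hoxb4, Hoxb13, Hoxd8 and Hoxd9 are filled above 0 and Hoxd1 is filled below 0 in all 3 conditions.

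In EB, 8 members were higher and 1 lower in KO than in WT, 23.5% and 2.94% of those tested, against 20.7% and 19.7% of all genes (8 and 0 when scaled by library totals), or 26.5% against 40.4% in either direction. The higher share is near the background. The median over the members was 0.40. Leaving out KO EB replicate 3 left 3 calls, and leaving out either WT EB replicate left 4.

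Hoxd10, a limb motor-neuron and hindlimb gene, had 3 and 2 counts in WT and 13 and 9 counts in KO EB, and was higher by 2.23 ± 0.66 (edgeR, adjusted p = 0.012). The call was lost without KO EB replicate 3 (adjusted p = 0.068) or WT EB replicate 2 (0.11). Hoxc13 was higher by 0.64 ± 0.20, lost without WT EB replicate 2 (0.096) or KO EB replicate 3 (0.20). Hoxa10 was at 0.743 and 1.07 CPM in WT and 1.96 and 1.26 CPM in KO EB, higher by 0.76 ± 0.27, lost without WT EB replicate 1 (0.18) or KO EB replicate 3 (0.41). Before OHT Hoxa10 had the opposite difference, with 7.90 and 7.32 CPM in WT and 4.62 and 3.62 CPM in F/F (-0.87 ± 0.18, adjusted p = 0.0013), and the 2 differences differed from each other by 1.63 ± 0.32 (adjusted p = 0.00097), which held whichever of the 8 libraries was left out.

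**Figure D5:**
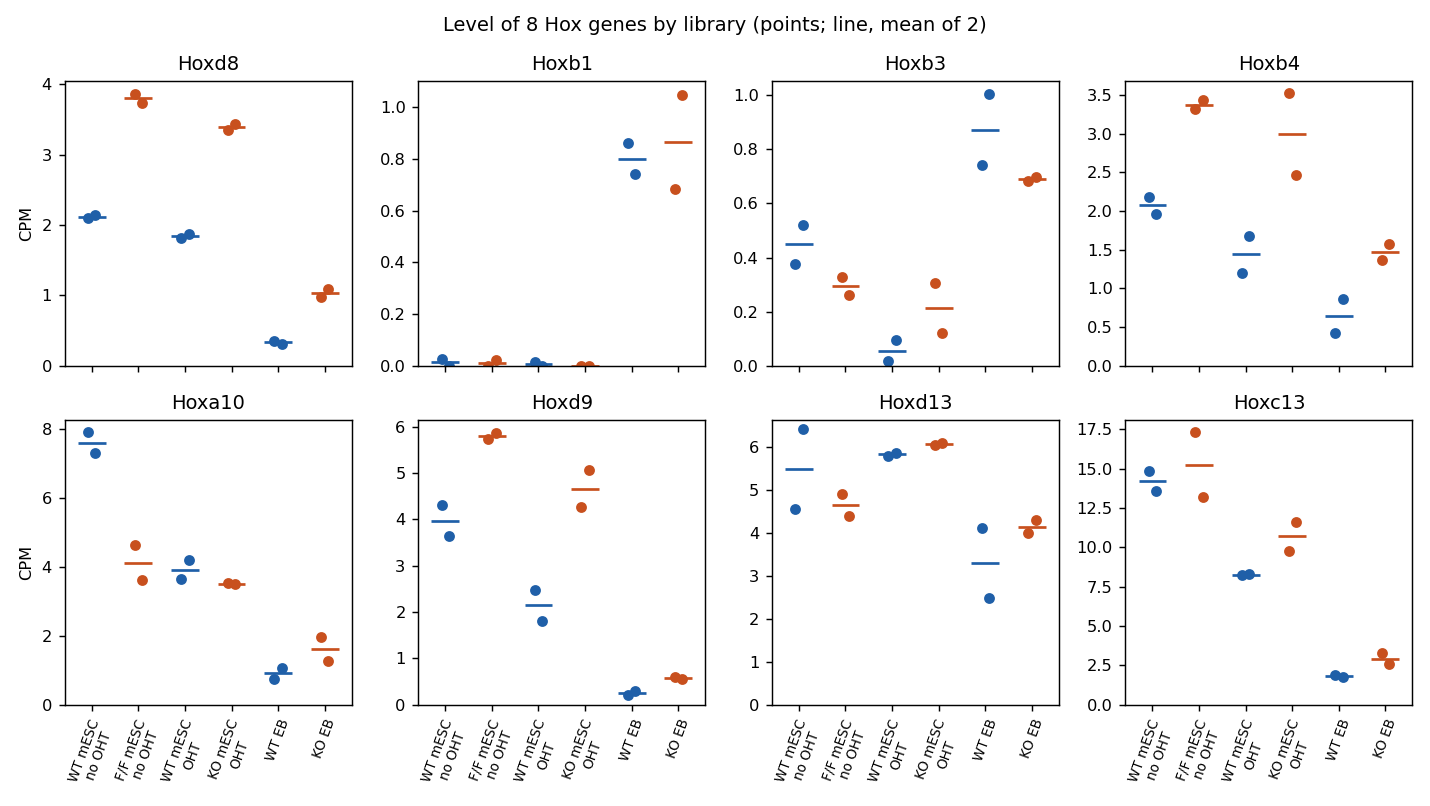
CPM of 8 Hox genes by group (points, the 2 libraries of a group; horizontal line, their mean; blue, WT; orange, F/F or KO; each axis starts at 0 and has its own scale). Hoxb1 has at most 1 count in any mESC library and 25 to 31 in EB, Hoxd8 is higher in the orange libraries of each condition, and Hoxd13 keeps 2.48 to 4.30 CPM in EB while Hoxd9 drops to at most 0.600 CPM.

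Whether OHT altered the genotype difference was tested directly. No member had a genotype difference that differed after OHT from before it in edgeR's test, against 7.86% of all genes (4.07% higher and 3.79% lower), with 7 members at an unadjusted p under 0.05 and 0 called by DESeq2. The median change over the members was 0.51 on the log2 scale, against -0.02 over all genes, with 28 of the 34 above 0 and 6 below. The absence of calls at these low counts thus does not show that the differences stayed the same. For Rif1 itself the genotype difference changed with OHT by -0.68 ± 0.11 (edgeR, adjusted p = 0.00098). Leaving out WT mESC replicate 2 brought 2 calls, and leaving out WT replicate 2 or F/F replicate 3 before OHT brought 1 each. Between EB and mESC after OHT, 3 members had a more positive and 4 a more negative genotype difference (8.82% and 11.8%, against 14.8% and 13.7% of all genes, or 20.6% against 28.6% in either direction). Without a library this count ran from 2, without WT EB replicate 2, to 8. Between EB and mESC before OHT, 3 were more positive and 0 more negative (8.82% and 0, against 15.5% and 15.7%, 31.2% in either direction, DESeq2 2 and 0).

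The mESC of the same lines before and after OHT were also compared, although these sets differ in the label that appears to name the flow cell. In WT cells 17 members were lower after OHT and 0 higher of the 34 tested (against 24.2% lower, 24.9% higher and 49.1% in either direction over all genes, edgeR, with 22 members at an unadjusted p under 0.05 in either direction and 14 lower and 0 higher by DESeq2). Without WT mESC replicate 1, the library with high Lars2, 11 were called. Hoxc11 went from 26 and 28 counts to 3 and 0, a ratio of 29.4 (95% exact interval 9.53 to 146.9), and Hoxc10 fell by 2.25 ± 0.41. Hoxc11 and Hoxb8 passed the filter on low counts only through mESC libraries before OHT. Their falls after OHT are therefore a description in both genotypes, with no test. Lost without WT mESC replicate 1 were Hoxb13, Hoxb2, Hoxc12, Hoxc4, Hoxd12 and Hoxd4 (adjusted p 0.083 to 0.28). Without WT mESC replicate 2, Hoxb2 and Hoxc9 were lost (0.057 and 0.12), without WT replicate 1 before OHT Hoxb2, Hoxd12, Hoxd4 and Hoxd9 (0.051 to 0.58), and without WT replicate 2 before OHT Hoxc12 and Hoxc9 (0.087 and 0.32). With the line as a replicate block Hoxd12 was lost (0.059). In the Rif1F/F lines 2 members were higher and 7 lower (5.88% and 20.6%, against 22.1% and 21.5%, or 26.5% against 43.7% in either direction). Of these, Hoxb9 (-1.43 ± 0.21) held whichever library was left out. Hoxb8 had 20 and 9 counts before and 0 after, at least 3.71-fold lower, which is a description for the reason given above. Among the other calls, Hoxb7 and Hoxb13 were lost without any 1 of the 4 libraries (adjusted p 0.057 to 0.099 and 0.10 to 0.17), and the latter also with the line as a replicate block (0.053). Hoxa7 was lost without F/F replicate 3 or 4 or KO replicate 4 (0.061 to 0.20), and Hoxd1 without KO replicate 3 or 4 or F/F replicate 4 (0.051 to 0.33). Hoxc11 was lost without KO replicate 4 or F/F replicate 3 (0.054 and 0.061), and Hoxc13 without KO replicate 3 or F/F replicate 3 (0.13 and 0.15).

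Genes that act on Hox clusters were counted from lists in KO against WT EB, in which 20.7% of all genes tested were higher, 19.7% lower and 40.4% called in either direction, with a median log2 fold change of -0.02. Of 9 TALE cofactors, 4 rose and 1 fell (44.4% and 11.1%), with a list median of 0.11. Meis1, a Hox DNA-binding partner, had 2.79 ± 0.115 CPM in WT EB against 5.87 ± 0.940 CPM in KO EB (SD, n = 2) and was higher by 1.01 ± 0.21 (edgeR, adjusted p = 0.0012). It was at 2.22 and 2.18 CPM (means) in WT and F/F mESC before OHT and at 1.91 and 6.66 CPM in WT and KO mESC after it, and its genotype difference grew with OHT by 1.75 (adjusted p = 0.0031). These Meis1 calls held whichever library was left out.

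Of 22 retinoid and Cdx genes, 2 rose and 6 fell, or 36.4% in either direction against 40.4% of all genes (list median -0.03). Dhrs3, an enzyme that reduces retinaldehyde, fell by 1.26 ± 0.13, Rarg, a retinoic acid receptor, by 0.46 ± 0.07 and Cdx4, a direct activator of central and posterior Hox genes, by 2.05 ± 0.38. Of 12 PRC2 genes, 2 rose and 2 fell, 33.3% in either direction against 40.4%, with a list median of 0.04. The smallest adjusted p was that of Phf19, a PRC2 accessory subunit, with 48.2 ± 1.60 CPM in WT EB against 8.53 ± 0.256 CPM in KO EB (-2.56 ± 0.17, edgeR adjusted p = 2.8e-09). Phf19 was also lower in F/F mESC before OHT, at 12.3 ± 4.73 against 53.9 ± 3.21 CPM. Of 21 PRC1 genes, 6 rose and 5 fell, 52.4% against 40.4% in either direction (list median 0.01). Bmi1 and Phc2, core and polyhomeotic subunits, rose by 1.04 ± 0.12 and 0.98 ± 0.10. Kdm2b, which recruits PRC1 to CpG islands, and Cbx7, which reads the PRC2 mark, fell by 0.70 ± 0.06 and 0.67 ± 0.06. Before OHT, Bmi1 was already higher in F/F by 0.43 and Phc2 was lower there by 0.43 (edgeR, adjusted p = 0.0074 and 0.0034). The Bmi1 call before OHT was lost in some fits without a library. Kdm2b and Cbx7 did not pass the threshold before OHT.

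Of 11 trithorax and demethylase genes, 0 rose and 5 fell, 45.5% in either direction against 40.4% of all genes and with a list median of -0.03. Among them were the methyltransferase Kmt2b, which fell by 0.34 ± 0.07, and its partner Ash2l, which fell by 0.30 ± 0.07. The 16 noncoding genes inside the clusters that were in the table had 5 members tested, of which 1 (20.0%, against 19.7% of all genes lower) fell: Halr1, a noncoding gene beside the Hoxa cluster, with 21.9 ± 0.0846 CPM in WT EB against 12.9 ± 0.0858 CPM in KO EB (-0.82 ± 0.13, edgeR adjusted p = 8.7e-05). In mESC after OHT, Halr1 had a mean of 5.42 CPM in WT cells, with 5.91 CPM in KO cells, and rose into EB by 1.99 ± 0.14 in WT and 1.11 ± 0.14 in KO. Genes flanking the clusters had 4 higher and 1 lower of 23, 21.7% in either direction against 40.4% of all genes (list median 0.03), with Calcoco2 higher by 1.57 ± 0.12 in EB and by 0.89 ± 0.10 in F/F before OHT. The genes named here from the retinoid, Polycomb, trithorax, noncoding and flanking lists kept adjusted p under 0.05 in KO against WT EB whichever library was left out.

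Other homeobox and paired-box genes that are Polycomb targets were counted for comparison. Of 64 in the table, 50 were tested. From mESC after OHT to EB, 20 rose and 12 fell in WT (40.0% and 24.0%, against 32.5% and 29.8% of all genes), with a median log2 fold change of 0.70 against 0.04. In KO 17 rose and 13 fell (34.0% and 26.0%, against 31.4% and 27.6%), with a median of 0.37 against 0.04. Their summed level went from 57.1 to 75.4 CPM in WT mESC to 153.8 to 154.4 CPM in WT EB. In KO against WT EB, 7 were higher and 6 lower, 26.0% in either direction against 40.4% of all genes. Among them, the patterning genes Gbx2 and En2 fell by 0.93 ± 0.13 and 1.09 ± 0.22. En2 was also lower in F/F before OHT, by 0.62 (edgeR, adjusted p = 0.0055, lost in some fits without a library). Gbx2 did not pass the threshold before OHT. The markers of cells leaving the naive state, Fgf5, Otx2, Pou3f1, Dnmt3b and Dnmt3a, were lower in KO EB in 5 of 5 cases, against 19.7% of all genes. Their sum was 2486 to 2508 CPM in WT and 1367 to 1384 CPM in KO EB. It was also lower in F/F before OHT, at 203.4 to 214.3 CPM against 268.1 to 275.0 CPM in WT. In mESC after OHT it was 211.8 to 223.1 CPM in KO and 290.3 to 308.7 CPM in WT. Streak and posterior mesoderm markers, with 7 of 8 tested, had 1 higher and 1 lower, and summed to 31.7 to 34.3 CPM in WT and 37.0 to 39.6 CPM in KO EB. The 15 fibroblast markers summed to 159.1 to 171.7 CPM in WT and 148.8 to 155.5 CPM in KO EB, and of 10 tested, 2 were higher and 2 lower. The part of these marker differences in the Hox values of EB was not tested.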

How the data were processed

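RNA was measured in 12 libraries (2 per group, 6 groups). The authors deposited raw read counts per gene symbol in 1 table. BWA, HTSeq, DESeq2 and the build mm9 are named per the submitters' processing notes, with no roles or versions, and whether counting used strand is not stated there. Counts were tested with edgeR 4.0.16 (R 4.3.3) on 1 model of 6 groups, with TMM, filterByExpr and Benjamini-Hochberg adjustment at 0.05; 17115 genes were tested. The common biological coefficient of variation was 0.0717. CPM use the library total, with no further scaling. DESeq2 1.42.0, other scalings, no filter, a block on the line, the compared groups alone and each library left out were alternatives.

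The labels give the same line in each condition, so replicate numbers pair libraries across conditions; deviations of same-numbered libraries correlated at -0.066 to 0.091. The block cannot be estimated for a genotype comparison within a condition.

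Members and lists were chosen with earlier results of these data known. Described in full were the 12 members with the highest mean CPM and every member called in the genotype or differentiation comparisons; 1 member and 1 list gene are not reported here; list genes were taken from the 4 with the smallest adjusted p in KO against WT EB. On simulated counts for KO against WT EB (16503 genes), 100% of 2-fold changes were called at 5 CPM or more and 58.3% below it, and 91.3% of 4-fold changes below it, so misses are frequent at Hox levels. Promoters came from RefSeq (GRCm38.p6) and lengths and overlaps from GENCODE, matched by symbol; the builds differ from mm9, so no Hox count is tied to a coordinate. Intervals are 95% and exact.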

Additional observations from a re-analysis of the deposited data

Results flagged for a closer look

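Genotype differences that themselves differed between conditions were found by edgeR's test of the difference. Between EB and mESC after OHT, the difference of KO against WT was more positive in EB for Hoxb9 (1.38 on the log2 scale) and Hoxa10 (0.98), and more negative for Hoxa5 (-1.31), Hoxa7 (-1.59), Hoxb3 (-2.31) and Hoxc10 (-3.97). Between EB and mESC before OHT it was more positive for Hoxa10 (1.63) and Hoxd10 (2.10).

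Hoxa10 in the second set held whichever of the 8 libraries was left out. The others named here did not: with the library left out that gave the highest adjusted p, this was 0.17 for Hoxc10, 0.11 for Hoxb9 and Hoxa7, 0.28 for Hoxa10, 0.20 for Hoxa5 and 0.34 for Hoxb3 in the first set, and 0.19 for Hoxd10 in the second. The library whose loss gave it was WT EB replicate 2 for Hoxc10, Hoxa7 and Hoxd10, KO EB replicate 4 or WT EB replicate 2 for Hoxb9, KO EB replicate 3 for Hoxa10, KO mESC replicate 4 for Hoxa5, and KO mESC replicate 3 for Hoxb3. With the line as a replicate block, since the same lines recur in each condition, the calls of Hoxa5 (adjusted p = 0.052) and Hoxb3 (0.053) were also lost. Hoxa5 was at 0.494 to 0.745 CPM in WT mESC after OHT, 1.00 to 1.01 CPM in WT EB, 0.813 to 1.16 CPM in KO mESC and 0.629 to 0.682 CPM in KO EB.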

How the results depend on the processing

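The fits hold 2 libraries per group, and most Hox genes have few counts, so many calls rest on single libraries. Of 110 member calls over the 10 comparisons, 55 kept their side of the threshold in every alternative run for them, 55 were lost in some fit that left out a library, 24 of these also under another setting, and 0 reversed; a lone library left in a group was assumed to vary like the others. Leaving out 1 library at a time gave 6 to 15 calls (16 in full) for KO against WT mESC, 3 to 7 (9) for KO against WT EB, 4 to 5 (7) for F/F against WT, 11 to 18 (17) for WT mESC after against before OHT, and 4 to 5 (9) for the same in the Rif1F/F lines. It gave 15 to 18 (18) from mESC to EB in WT and 18 to 22 (24) in KO. It gave 0 to 2 (0) for the change of the genotype difference with OHT, 2 to 8 (7) between EB and mESC after OHT, and 1 to 5 (3) between EB and mESC before OHT. DESeq2 called 9 (8 higher, 1 lower) for KO against WT mESC, 4 for F/F against WT (2 and 2), 5 for KO against F/F mESC, and 4 (3 and 1) for the genotype difference between EB and mESC. With the replicate block, the line, 24 and 18 members were called from mESC to EB in KO and WT, 9 and 16 after against before OHT, and 0, 5 and 3 for the genotype differences. The block ended 4 calls, Hoxa5 (-1.30, adjusted p = 0.052) and Hoxb3 (-2.30, 0.053) for the genotype difference between EB and mESC, Hoxb13 in KO against F/F mESC (-0.69, 0.053) and Hoxd12 in WT after against before OHT (-1.55, 0.059), and added Hoxa13 in KO against F/F mESC (-0.87, 0.044).

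Cluster sums without the highest member gave log2 ratios for KO against WT mESC of 0.26 (Hoxa), 1.19 (Hoxb), 1.08 (Hoxc) and 0.73 (Hoxd), for KO against WT EB of 0.017 (Hoxa) and 0.30 (Hoxc), for F/F against WT of 0.51 (Hoxb), for WT EB against mESC of 0.97 (Hoxb), and for KO EB against mESC of -1.30 (Hoxa), -2.91 (Hoxc) and -1.69 (Hoxd). Members at 1 CPM or more in both libraries numbered 14, 16, 11, 15, 6 and 6 against 36, 36, 27, 34, 27 and 27 at 0.1 CPM. Sums whose libraries overlapped changed sign: with TMM scaling Hoxa in KO against WT mESC was -0.03 (0.03 by library totals) and Hoxb in WT EB against mESC was -0.0029 (0.01), and without Hoxb9 Hoxb in KO EB against mESC was 0.25 (-0.03).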
